A study of Mus musculus with 6 samples.

Results

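Human *ATXN1*, the transgene of these mice, was described with the mouse gene *Atxn1*, its paralog *Atxn1l* and the genes of its partner proteins Cic and Rbm17, 5 genes of the 32286 listed for every nucleus. The genes were taken by name. Nuclei of whole cerebella came from 3 SCA1 mice and 3 wild-type (WT) sex-matched littermates, all 12 weeks old and on the C57BL/6 background, with 1 library per mouse. The SCA1 mice carried *Pcp2-ATXN1[82Q]*, a human *ATXN1* with an expanded CAG repeat, while the WT mice carried no transgene. Both genotypes kept their own mouse *Atxn1*. Because the *Pcp2* promoter drives the transgene in Purkinje cells (PCs), the line models the disease in 1 cell type only, unlike patients, in whom *ATXN1* is expressed widely. According to the paper's methods, such repeats tend to shrink in mice, and the colony's average at the time was shorter than the line's name states. The length of the repeat in these mice was not read here.

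ATXN1 is a nuclear protein that binds RNA and represses transcription, and its expanded polyglutamine tract causes spinocerebellar ataxia type 1, in which PCs degenerate. ATXN1 and its paralog ATXN1L (also called Brother of ATXN1) each bind Capicua (CIC), a repressor of genes downstream of receptor tyrosine kinases, and the binding stabilizes CIC. RBM17 is a splicing factor that prefers expanded ATXN1 phosphorylated at a serine near its C terminus, so it competes with CIC for ATXN1.

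Sequences of 2 kinds show where this biology sits in the mouse genes, in the build GRCm38. The first is the stretch of the mouse *Atxn1* coding sequence with its longest run of CAG codons, since the transgene differs from the mouse gene here. It lies at chr13:45567800-45567838 on the minus strand, is coding sequence of an exon, and its 2 CAG codons are in capitals.
Atxn1 coding stretch: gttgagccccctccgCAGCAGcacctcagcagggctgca
The second is a promoter of a known CIC target with the octamers that CIC binds. The letters searched were TGAATGAA, TGAATGGA, TCAATGAA and TCAATGGA on both strands, in RefSeq promoters of GRCm38.p6 running from 250 bases before to 50 after a gene's start. *Dusp6*, which encodes a phosphatase that acts downstream of receptor tyrosine kinases, held 2 matches (chr10:99262981-99263280, plus strand, capitals).
Dusp6 promoter: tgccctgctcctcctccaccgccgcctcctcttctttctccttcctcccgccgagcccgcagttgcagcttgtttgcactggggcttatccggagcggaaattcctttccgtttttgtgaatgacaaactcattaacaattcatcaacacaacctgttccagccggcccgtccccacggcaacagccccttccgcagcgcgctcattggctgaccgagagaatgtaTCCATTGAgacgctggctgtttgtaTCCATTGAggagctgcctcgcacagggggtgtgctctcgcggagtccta
An octamer was found in 3 of the 10 promoters of the 8 listed CIC targets that matched (30.0%), in 0 of 4 promoters of *Cic*, *Atxn1l* and *Rbm17*, and in 3.84% of all 32851 promoters. A match is a description of the letters and not a binding site.

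*Atxn1* (ENSMUSG00000046876) lies at chr13:45549755-45965008 on the minus strand and spans 415.3 kb, in which 3 genes of the opposite strand also lie. *Cic* (ENSMUSG00000005442) lies at chr7:25267704-25294159 on the plus strand and spans 26.46 kb. *Rbm17* (ENSMUSG00000037197) at chr2:11585437-11604153 spans 18.72 kb and *Atxn1l* (ENSMUSG00000069895) at chr8:109726451-109737739 spans 11.29 kb, both on the minus strand. Spliced transcripts of the paralogs *Atxn1* and *Atxn1l* shared 0 sequences of 25 bases. Introns, which were also counted, and inexact matches were not compared, so reads of one placed on the other were not tested. Human *ATXN1* was added to the reference by the authors, as its gene locus according to the paper's methods. The coordinates of the added sequence are not given in the sources used here.

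Each nucleus carried the SingleR label given by the authors, and 13 of 24 labels had at least 10 nuclei in every mouse, which kept 45042 of 45473 nuclei. The libraries held 18916647 to 98366627 UMIs (unique molecular identifiers, each counting 1 captured transcript). The labels for PCs, granule neurons, oligodendrocytes (OL), velate astrocytes (VA) and Bergmann glia (BG) were checked against markers. Of the 7 PC markers, 7 were highest in PCs among the 13 labels, as were 4 of 5 in granule neurons, 5 of 5 in BG, 4 of 4 in VA and 4 of 4 in OL. The other labels are named by their leading genes as the authors gave them. Mouse 1 of each genotype was taken as batch 1, from the library numbers, and its nuclei held no fewer than 3890 UMIs, against 1000 to 1739 in the other mice. Between any pair of libraries 7 to 44 cell barcodes were shared.

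The transgene was read in PCs of all 3 SCA1 mice and in no WT PC. Human *ATXN1* UMIs numbered 12, 15 and 19 in the PCs of SCA1 mice 1, 2 and 3, in 10 of 65, 10 of 52 and 11 of 29 nuclei. These were 15.4%, 19.2% and 37.9% of nuclei, or 24.2% ± 12.1 (SD, n = 3 mice). No UMI was found in 76, 41 and 29 PC nuclei of the WT mice, or in 0 of 146 nuclei, which allows a share of up to 2.05% by the limit of 3 counts and of up to 2.49% by the exact Clopper-Pearson interval. The genotypes did not overlap, and a two-sided exact permutation test gave p = 0.1, the smallest that 3 mice against 3 allow (0.867 adjusted over 13 labels). Pooled over the SCA1 mice, 31 of 146 nuclei had a UMI, or 21.2% (exact Clopper-Pearson 95% interval 14.9% to 28.8%, counting error only).

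By level, human *ATXN1* stood at 4.74, 13.9 and 10.9 CPM (UMIs of a gene per 1000000 UMIs of the label in that mouse) in the PCs of SCA1 mice 1, 2 and 3. Pooled over the 3 mice it was 8.59 CPM (exact Poisson 95% interval 6.29 to 11.5, counting error only). SCA1 mouse 1 lay below this interval. The pooled value was 14.8 times the 0.579 CPM that 3 counts over all WT PCs would give. The exact Poisson upper limit for WT PCs was higher, at 0.712 CPM. Without WT mouse 1, whose PCs held the most UMIs, the ratio to the limit of 3 counts was 5.56. These ratios leave out the error of the SCA1 value and are not lower bounds. Most PCs of the SCA1 mice had no human UMI. In 115 nuclei no human UMI was counted, in 21 there was 1, in 5 there were 2 and in 5 there were 3. The share grew with the depth of the nucleus. Of nuclei below the median depth of their own mouse, 13.9% had a human UMI, and of those at or above it 28.4%. A PC without a UMI therefore cannot be taken as one without the transgene's RNA.

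**Figure D1:**
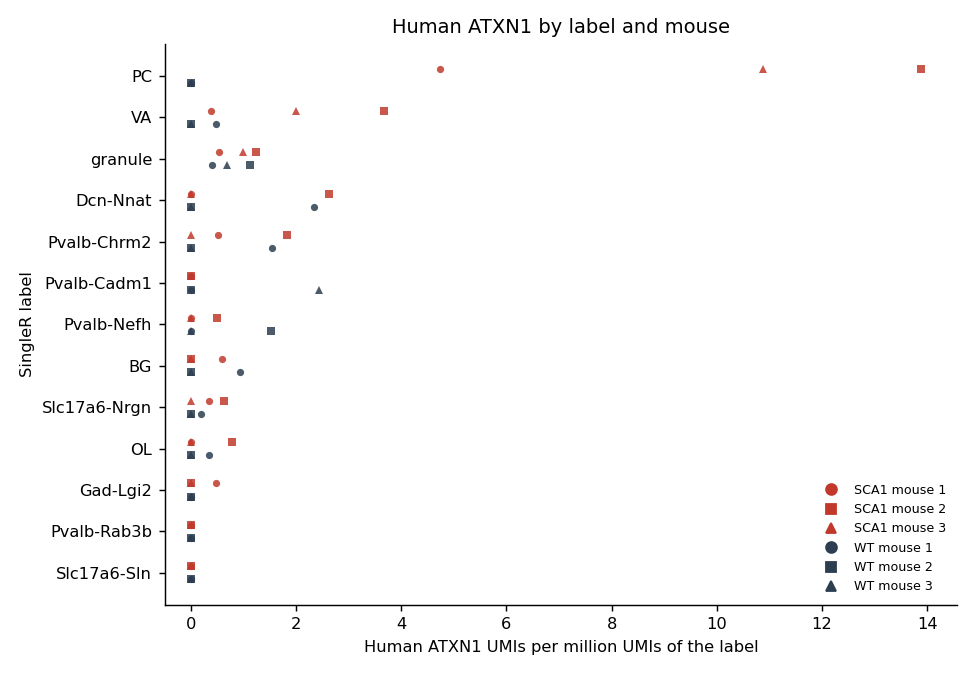
Human *ATXN1* in CPM (x axis, linear) in 13 SingleR labels (y axis), with 1 point per mouse and red for SCA1 and dark blue for WT. In PCs the SCA1 mice sat at 4.74, 13.9 and 10.9 and the WT mice at 0, while points at 0 overlap in other labels.

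Outside PCs, human UMIs were scarce and were found in both genotypes. Of granule neurons, 112 of 20499 SCA1 and 56 of 17033 WT nuclei had one, or 0.546% and 0.329%. The level in granule neurons of SCA1 mice 1, 2 and 3 was 0.537, 1.23 and 0.992 CPM, against 0.394, 1.12 and 0.688 CPM for WT. These levels overlapped between genotypes. The share with a UMI was 0.421%, 0.608% and 0.673% in SCA1 mice 1, 2 and 3, against 0.306%, 0.277% and 0.505% for WT mice (two-sided exact permutation test, p = 0.2). The shares overlapped over all mice. In batch 1, with 1 mouse of each genotype, share and level were both higher in the SCA1 mouse. In batch 2, with 2 mice of each genotype, the shares did not overlap but the levels did. The PC level was 8.83 to 11.3 times the granule neuron level of the same SCA1 mouse. PC nuclei were deeper, with a median of 35708.5 UMIs in SCA1 mice against 5965 in granule neurons. After thinning to 3000 UMIs per nucleus, a UMI was left in 1.34%, 3.90% and 3.30% of PC nuclei of SCA1 mice 1, 2 and 3, and in 0.161%, 0.403% and 0.317% of their granule neurons. At this depth granule neurons of WT mice were at 0.126%, 0.284% and 0.244%. Thinning left out 2 of 146 SCA1 and 10 of 146 WT PCs, and 1180 of 20499 SCA1 and 4541 of 17033 WT granule neurons.

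Among glia of the SCA1 mice a human UMI was found in 7 of 584 VA, 2 of 696 BG and 1 of 781 OL nuclei, and among those of WT mice in 1 of 430 VA, 3 of 547 BG and 1 of 603 OL nuclei. For VA the exact permutation test gave p = 0.2 (0.867 adjusted over 13 labels), and the shares of WT and SCA1 mice overlapped. They did so through batch 1, where 1 of 285 VA nuclei of SCA1 mouse 1 and 1 of 250 of WT mouse 1 had a UMI. In batch 2 a UMI was found in 4 of 182 and 2 of 117 VA nuclei of SCA1 mice 2 and 3, and in 0 of 117 and 0 of 63 of WT mice 2 and 3. The ratio of human to mouse UMIs was used to set labels side by side. In PCs of SCA1 mice 1, 2 and 3 it was 19.3, 50.3 and 46.2 human *ATXN1* UMIs per 1000 mouse *Atxn1* UMIs. In their granule neurons it was 1.12, 2.93 and 1.52, and in WT granule neurons 0.948, 2.01 and 1.01. WT PCs held only 921 mouse *Atxn1* UMIs, so a ratio such as that of granule neurons would not be detectable in them. In all, 67 WT nuclei had a human UMI, and 0 of them shared a barcode with a nucleus of a SCA1 mouse, while 158 of all 20527 WT nuclei (0.770%) did, so that few of the 67 could be expected to. The source of these UMIs was not tested.

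Mouse *Atxn1*, the endogenous gene, was read in each of the 13 labels, among them highest in neurons labelled Slc17a6-Nrgn and lowest in PCs and OL. Levels are CPM as mean ± SD over n = 6 mice. *Atxn1* was at 635 ± 44.5 CPM in Slc17a6-Nrgn neurons, 535 ± 115 in granule neurons, 397 ± 55.0 in BG, 327 ± 32.9 in VA, 216 ± 52.5 in PCs and 193 ± 25.2 in OL. The remaining 7 labels lay between 514 and 322 CPM. In order of level, Slc17a6-Nrgn and granule neurons were followed by Dcn-Nnat, Slc17a6-Sln, Pvalb-Nefh, Pvalb-Chrm2, Pvalb-Rab3b, BG, Pvalb-Cadm1, VA, Gad-Lgi2, PCs and OL. In granule neurons of SCA1 mice 1, 2 and 3 the level was 481, 421 and 654 CPM, and in those of WT mice 415, 558 and 682 CPM. PCs were at 246, 276 and 235 CPM for the SCA1 mice, against 169, 136 and 234 CPM for the WT mice. Each mouse thus had less *Atxn1* per UMI in PCs than in granule neurons.

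Counted per nucleus, the order of labels was another one, and PC nuclei were also the deeper ones. A PC nucleus had 8.07 ± 3.87 *Atxn1* UMIs, a granule neuron 3.36 ± 1.39 and an OL 1.35 ± 0.519 (SD, n = 6 mice). Only Slc17a6-Nrgn neurons (13.5) and Pvalb-Chrm2 neurons (8.51) had more per nucleus than PCs among the 13 labels. With all nuclei thinned to 3000 UMIs, an *Atxn1* UMI was left in 78.7% of Slc17a6-Nrgn neurons, 71.4% of granule neurons, 40.4% of PCs and 31.2% of OL.

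**Figure D2:**
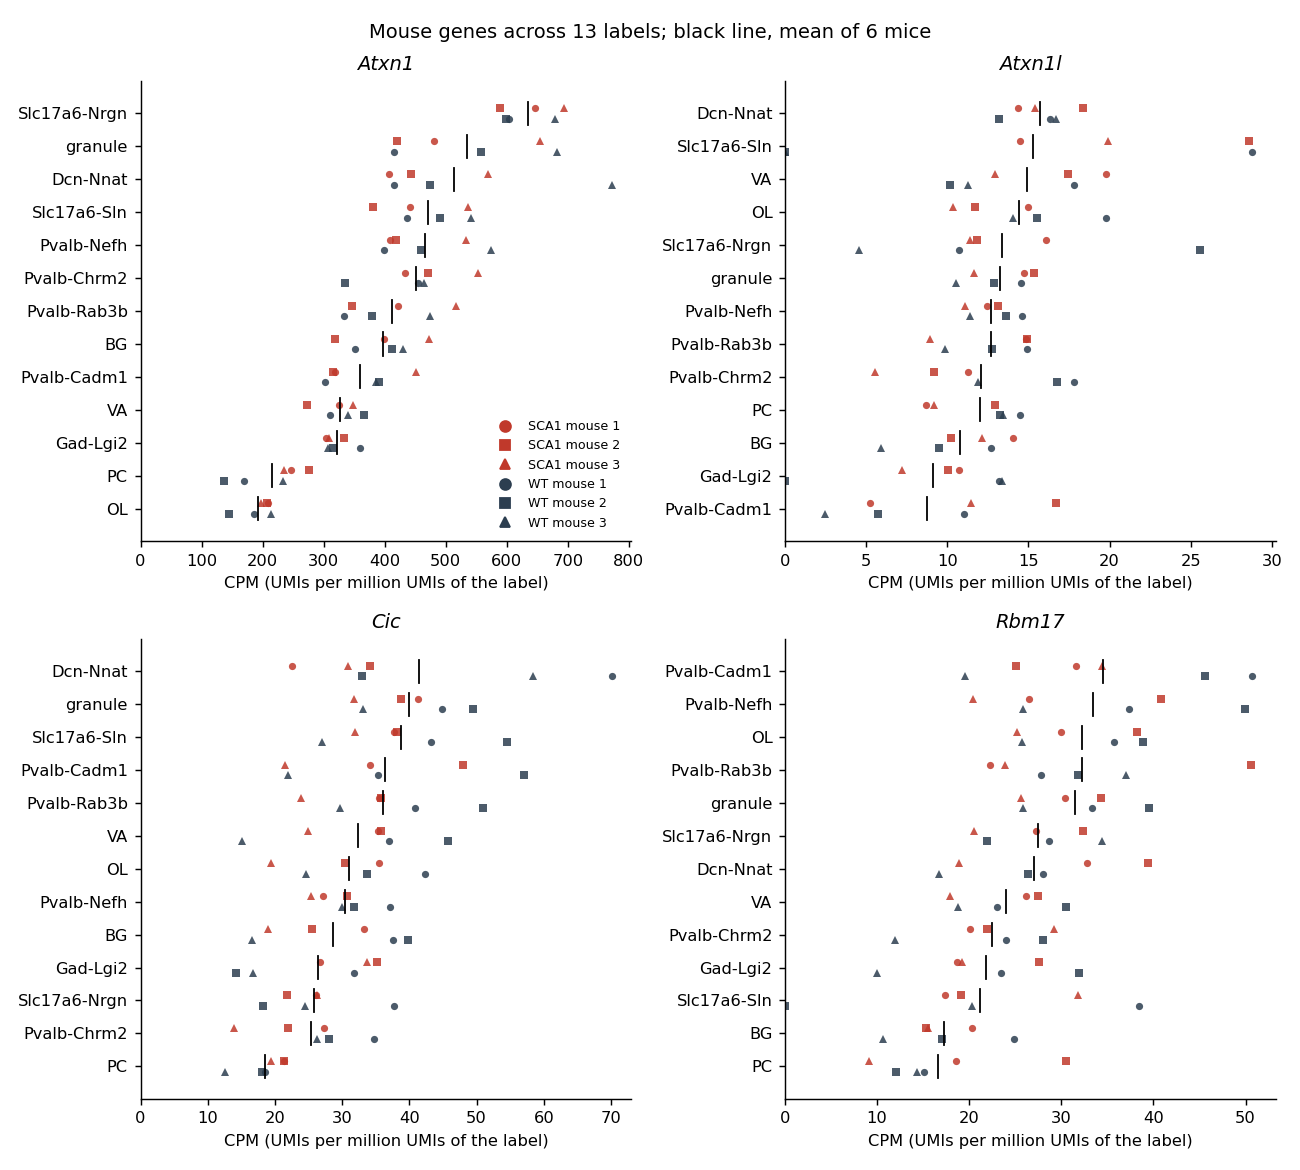
CPM (x axes, linear, from 0) of the 4 mouse genes in 13 labels (y axes, ordered by the mean of 6 mice, black line), with 1 point per mouse. PCs had the lowest mean of *Cic* and *Rbm17* and the second lowest of *Atxn1*, while label means of *Atxn1l* ran from 8.76 to 15.7 CPM.

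*Cic*, the repressor bound by both paralogs, was highest in Dcn-Nnat nuclei (41.5 ± 18.5 CPM) and granule neurons (39.9 ± 6.83) and lowest in PCs (18.5 ± 3.23). PCs held 21.3, 21.3 and 19.5 CPM in SCA1 mice 1, 2 and 3 and 18.5, 18.1 and 12.6 CPM in the WT mice, all below the granule neurons of the same mouse, which ranged from 31.7 to 49.5 CPM. *Rbm17*, the splicing factor, was highest in Pvalb-Cadm1 neurons (34.5 ± 11.9 CPM) and lowest in BG (17.3 ± 4.83) and PCs (16.6 ± 7.5). In PCs its levels were 18.6, 30.5 and 9.16 CPM for SCA1 mice 1, 2 and 3, against 15.1, 12.1 and 14.4 CPM for WT mice, so that SCA1 mice 2 and 3 were the highest and the lowest of the 6. *Atxn1l*, the paralog, stayed between 15.7 ± 1.84 CPM in Dcn-Nnat nuclei and 8.76 ± 5.23 in Pvalb-Cadm1 neurons, with 13.3 ± 1.92 in granule neurons and 12.0 ± 2.45 in PCs. Its counts were low, at 125 UMIs over all 292 PC nuclei, against 2252 of *Atxn1*.

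Neighbours in each of these orders were set against their spread over mice with a two-sided exact sign-flip permutation test, whose smallest p over 6 mice is 0.031. Of 48 neighbouring pairs 2 reached it, and since 30 would have to reach it for any to pass adjustment, this test could not order neighbours. For *Atxn1*, Gad-Lgi2 neurons lay above PCs and BG above Pvalb-Cadm1 neurons in 6 of 6 mice (p = 0.031 each, exact permutation test, 0.75 adjusted).

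In 1 edgeR fit over the 13 labels with mouse as a term, each label was compared with granule neurons of the same mice, and 26 of 48 comparisons of the 4 mouse genes passed the test (adjusted p of at most 0.05 over 13286 genes), 25 lower and 1 higher. Differences between labels were common among all genes. The share called was 63.1% in PCs, 58.9% in BG, 58.8% in Slc17a6-Nrgn, 55.6% in Dcn-Nnat, 55.2% in VA, 54.3% in Gad-Lgi2, 52.9% in Pvalb-Chrm2, 51.7% in OL, 47.3% in Pvalb-Nefh, 39.5% in Pvalb-Cadm1, 35.8% in Pvalb-Rab3b and 27.9% in Slc17a6-Sln. In the lower direction alone it was 33.0% in PCs, 31.7% in BG, 31.0% in Dcn-Nnat, 30.2% in Slc17a6-Nrgn, 29.6% in VA, 28.1% in Gad-Lgi2, 27.4% in OL, 27.3% in Pvalb-Chrm2, 25.8% in Pvalb-Nefh, 21.5% in Pvalb-Cadm1, 19.8% in Pvalb-Rab3b and 16.8% in Slc17a6-Sln, and 28.6% were called higher in Slc17a6-Nrgn. *Atxn1* was called in 12 of 12 labels, lower in 11 and higher in Slc17a6-Nrgn neurons, with 7 of the 12 called under all 3 scalings tried, *Cic* was lower in 8, *Rbm17* lower in 5 and *Atxn1l* lower in 1, Pvalb-Cadm1 neurons. The 26 of 48 called in either direction is near the share of all genes in most labels. The 25 of 48 called lower is above the share of all genes called lower, 16.8% to 33.0% by label. These 25 share 1 reference label, and 11 of them are of *Atxn1*.

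In PCs, *Atxn1* was lower than in granule neurons by a log2 difference of −0.83 (SE 0.115, edgeR adjusted p = 2.1e-09), *Cic* by −0.62 (SE 0.142, adjusted p = 0.00012) and *Rbm17* by −0.47 (SE 0.159, adjusted p = 0.0083). Of all genes, 30.1% were called higher in PCs. *Atxn1l* differed by 0.29 (SE 0.188, 95% interval −0.09 to 0.66, adjusted p = 0.175). Of the 12 labels, OL had the largest difference of *Atxn1* (log2 −1.48, SE 0.117, edgeR adjusted p = 9.6e-19). In VA the log2 difference was −0.78, in BG −0.38 and in Slc17a6-Nrgn neurons 0.26 (edgeR adjusted p = 0.0449). *Cic* was also lower in BG (−0.46) and in Slc17a6-Nrgn neurons (−0.52), where *Atxn1* was higher.

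These differences depend on how labels of unlike composition are scaled. The median gene of PCs stood at −0.08 against granule neurons with TMM factors, at −0.03 with RLE factors and at −0.55 with library size alone, and *Atxn1* lay below that median by 0.75, 0.73 and 0.74. *Atxn1l* in PCs changed sign, from 0.29 with TMM to −0.19 with library size alone. Directions also changed for *Atxn1l* and *Cic* in Dcn-Nnat and for *Rbm17* in OL and Pvalb-Nefh, none of them called. With RLE factors, 17 of 48 comparisons were called in place of 26, and the calls lost were those of *Atxn1* in BG, Dcn-Nnat, Pvalb-Chrm2, Pvalb-Nefh and Slc17a6-Sln, *Cic* in OL and VA, *Rbm17* in VA and *Atxn1l* in Pvalb-Cadm1. Under all 3 scalings 17 were called, 7 of them of *Atxn1*, 6 of *Cic* and 4 of *Rbm17*.

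**Figure D3:**
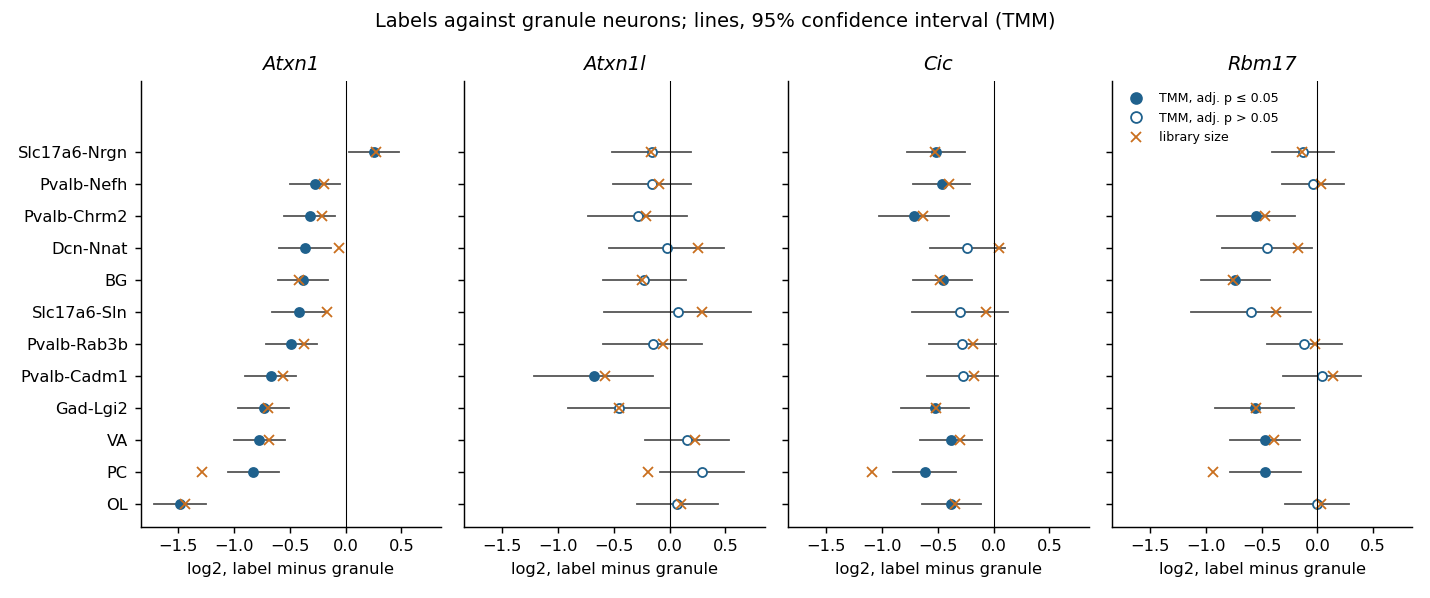
Log2 difference of each of 12 labels from granule neurons (x axes) for the 4 mouse genes, from 1 edgeR fit over 6 mice, with filled circles for an adjusted p of at most 0.05, lines for the 95% confidence interval and crosses for library size alone. In PCs, *Atxn1* stood at −0.83 with TMM factors, *Cic* at −0.62 and *Rbm17* at −0.47.

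The comparison of SCA1 with WT asked whether the transgene's presence went with other levels of the endogenous gene, its paralog and its partners. Any transgene reads counted as mouse *Atxn1* would add to its level in PCs of SCA1 mice, and this was not tested. No member was called in any label. With edgeR's quasi-likelihood test, fitted with genotype and batch, 0 of 44 comparisons of a mouse gene within a label passed, 1 had an unadjusted p under 0.05, and 0 passed in DESeq2, which called 0.672% of all genes in PCs, 0.0793% in granule neurons, 0.018% in BG, 0.0119% in Gad-Lgi2 and 0.00917% in OL. The remaining 8 of 52 did not pass the filter on low counts, *Atxn1l* in 6 labels and *Cic* and *Rbm17* in Slc17a6-Sln neurons. With edgeR the share of all genes called was 0.0% in 11 labels, 0.00566% in granule neurons and 0.00917% in OL, and in PCs 653 of 9821 genes had an unadjusted p under 0.05.

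In PCs, the cells in which the promoter drives the transgene, *Atxn1* was at 246, 276 and 235 CPM in SCA1 mice 1, 2 and 3 and at 169, 136 and 234 CPM in WT mice 1, 2 and 3. The groups did not overlap, but SCA1 mouse 3 and WT mouse 3 lay side by side. The log2 fold change was 0.29 (SE 0.238, 95% interval −0.23 to 0.82, edgeR adjusted p = 0.978), and it was 0.088 without WT mouse 2 and 0.585 without WT mouse 3. Within batches the log2 ratio of mean CPM was 0.54 in batch 1, with 1 mouse of each genotype, and 0.46 in batch 2, with 2 of each. *Atxn1l* went the other way, at 8.70, 12.96 and 9.16 CPM in SCA1 mice against 14.5, 13.3 and 13.5 CPM in WT mice. All SCA1 values were below all WT values, though SCA1 mouse 2 and WT mouse 2 nearly met. Its log2 fold change was −0.66 (SE 0.335, 95% interval −1.40 to 0.08, edgeR adjusted p = 0.823), with ratios of −0.74 and −0.27 within batches 1 and 2. This rested on 52 UMIs in SCA1 and 73 in WT PCs.

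*Cic* in PCs was at 21.3, 21.3 and 19.5 CPM in SCA1 mice against 18.5, 18.1 and 12.6 CPM in WT mice, also without overlap. Its log2 fold change was 0.16 (SE 0.285, edgeR adjusted p = 0.999), with 0.036 without WT mouse 3 and 0.236 without SCA1 mouse 1. *Rbm17* overlapped between genotypes, with a log2 fold change of 0.22 (SE 0.407, edgeR adjusted p = 0.999) that turned to −0.23 without SCA1 mouse 2 and was 0.543 without SCA1 mouse 3 and 0.124 without WT mouse 2. Groups without overlap were common in PCs: 14.6% of all genes tested did not overlap in CPM, 12.0% with all SCA1 mice above and 2.57% with all below. With library size alone the median gene of PCs was higher in SCA1 mice by 0.20 on the log2 scale, against 0.02 with TMM factors. On that scale *Atxn1* stood at 0.49, *Cic* at 0.34, *Rbm17* at 0.42 and *Atxn1l* at −0.47.

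Other cell types' RNA in PC sums varied between mice. The summed CPM of the 5 granule markers ranged from 25.8 to 176 in PCs of SCA1 mice and from 32.5 to 239 in those of WT mice, that of the 5 BG markers from 52.7 to 209 and from 134 to 252, and that of the 7 PC markers from 45857 to 66913 and from 59066 to 81780. The sum of the 4 VA markers was 46.6, 28.7 and 12.6 CPM in PCs of SCA1 mice 1, 2 and 3, against 33.3, 2.41 and 4.49 CPM for WT mice. Between mice of the same number, the VA sum was higher and the PC sum lower in the SCA1 mouse in 3 of 3 cases. Each of the 4 sums overlapped between the genotypes, and their part in the members' values was not tested.

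**Figure D4:**
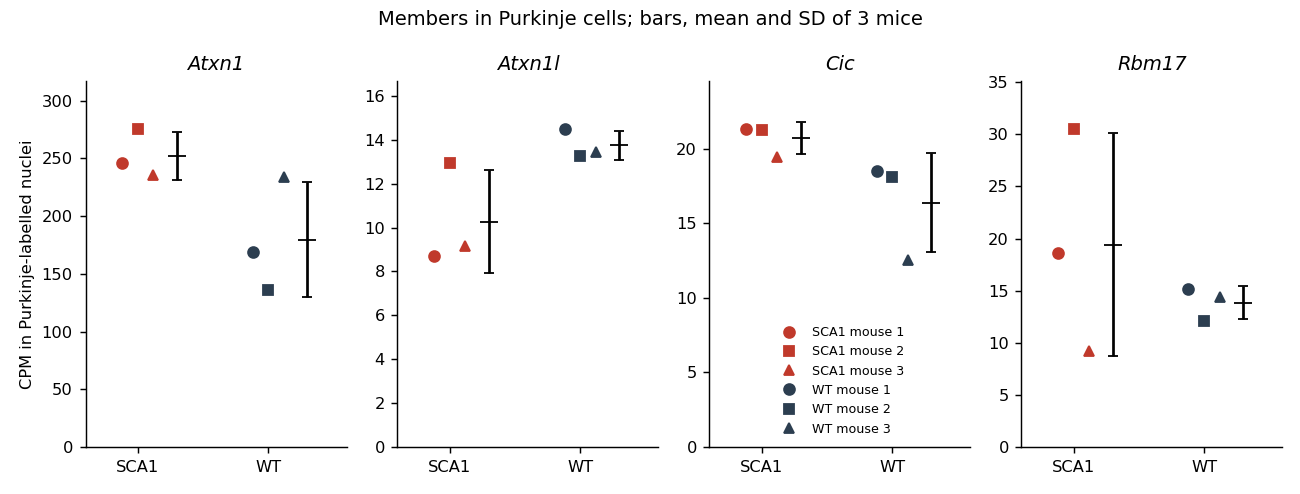
CPM (y axes, linear, from 0) of the 4 mouse genes in PC-labelled nuclei, with 1 point per mouse and the mean and SD of 3 mice as bars. SCA1 mice lay above WT mice for *Atxn1* and *Cic* and below them for *Atxn1l*, while *Rbm17* overlapped and no gene passed the test.

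Outside PCs, *Atxn1* had log2 fold changes from −0.21 to 0.22 in the other labels. In BG it was at 399, 319 and 472 CPM in SCA1 mice against 352, 412 and 430 CPM in WT mice. In granule neurons, the label with the most UMIs summed over its nuclei, its log2 fold change was −0.09 (95% interval −0.83 to 0.64). *Cic* had a log2 fold change below 0 in 10 of the 12 labels tested and above 0 in PCs and Gad-Lgi2 neurons, with 1 unadjusted p under 0.05, in Dcn-Nnat nuclei, where it was at 22.5, 34.1 and 30.9 CPM in SCA1 and 70.1, 32.9 and 58.4 CPM in WT mice (log2 −0.95, SE 0.428, edgeR adjusted p = 1.00). This label was chosen for mention after its values were seen. *Rbm17* ranged from −0.36 to 0.33 and *Atxn1l* outside PCs from −0.44 to 0.42, and the smallest adjusted p outside PCs was 0.998 (edgeR).

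**Figure D5:**
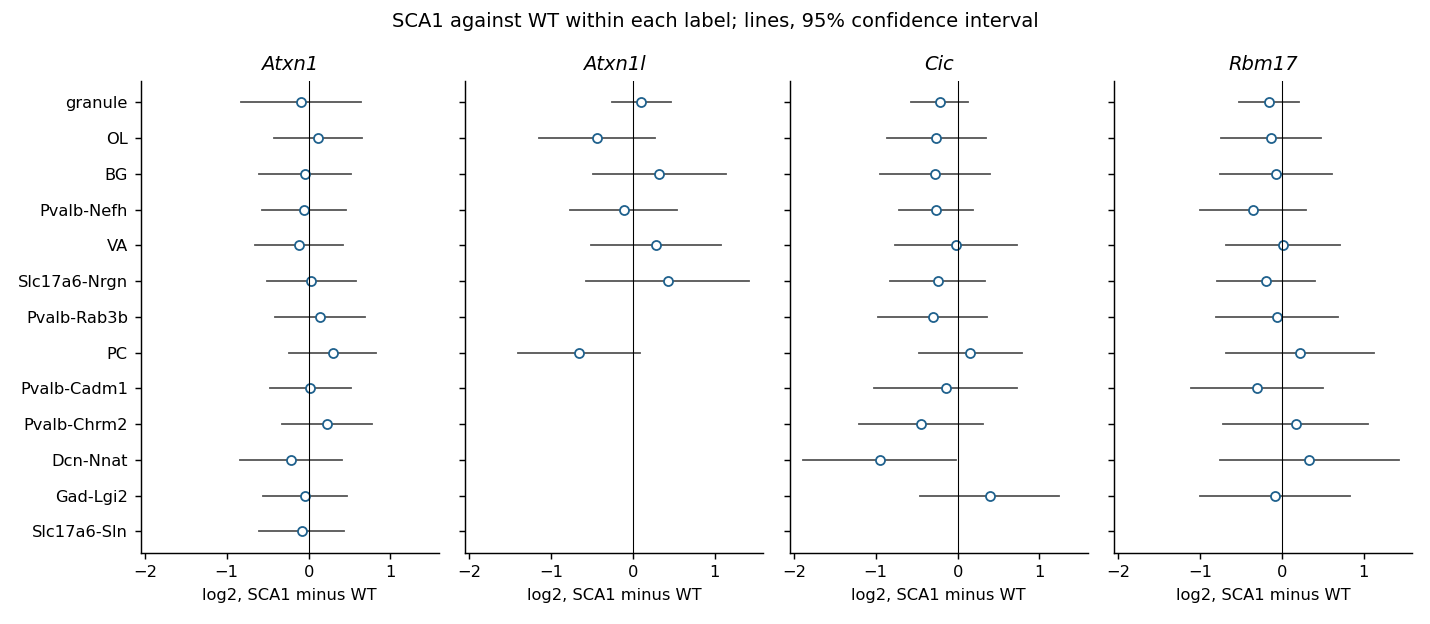
Log2 fold change of SCA1 against WT (x axes) within 13 labels (y axes, ordered by their number of nuclei) for the 4 mouse genes, with the 95% confidence interval of edgeR's fit as lines and no entry for genes that failed the filter. None of the 44 values passed the test.

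An interaction term tested whether the genotype difference in PCs exceeded that of granule neurons. The PC effect exceeded the granule neuron effect by 0.40 for *Atxn1* (95% interval −0.20 to 1.00), 0.33 for *Cic* (−0.22 to 0.87) and 0.27 for *Rbm17* (−0.53 to 1.07). For *Atxn1l* it fell short by a log2 difference of −0.77 (−1.54 to −0.01, unadjusted p = 0.048 in edgeR). All 4 adjusted p were 1, and 0.0% of the 16043 genes tested were called in this comparison. Without SCA1 mouse 2 the difference was 0.20 for *Atxn1* and −0.02 for *Rbm17*. With library size alone it was 0.60 for *Atxn1*, 0.51 for *Cic*, 0.46 for *Rbm17* and −0.58 for *Atxn1l* (unadjusted p = 0.112 in edgeR).

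In PCs of the SCA1 mice, members were also set side by side between nuclei with and without a human *ATXN1* UMI. As nuclei of 1 mouse are not replicates and the split depends on depth, this is a description only. *Atxn1* was at 272, 268 and 346 CPM in nuclei with a human UMI of mice 1, 2 and 3, and at 241, 279 and 162 CPM in those without. The direction differed between mice, and the distance in mouse 3 rested on 11 and 18 nuclei. *Atxn1l* was lower in nuclei with a human UMI in 3 of 3 mice, from 2, 3 and 4 UMIs. *Cic* was lower in mice 1 and 2 and higher in mouse 3 (27.4 against 14.2 CPM).

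Mouse 3 of both genotypes was often the highest or lowest of its group in the 4 mouse genes. Among the SCA1 mice, mouse 3 had the highest *Atxn1* in 10 of 13 labels, and among the WT mice in 10 of 13. For *Cic*, the same mice were the lowest of their genotype in 10 and 10 labels, for *Rbm17* in 7 and 9 and for *Atxn1l* in 8 and 8. The libraries differed in the share of UMIs on long genes. Genes spanning at least 100 kb, such as *Atxn1*, took 45.2%, 44.3% and 57.9% of granule neuron UMIs in SCA1 mice 1, 2 and 3, against 42.3%, 45.9% and 58.8% for WT mice. Genes under 30 kb, such as *Cic*, *Rbm17* and *Atxn1l*, took 32.1%, 33.3% and 19.5% in SCA1 mice against 35.1%, 30.5% and 18.7% in WT mice. Mouse 3 of each genotype was thus the highest on long genes and the lowest on short ones, and the part this has in the members' values was not tested.

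Genes that act with the members were followed in 4 lists written from general knowledge of ATXN1. None of their genes was called in any of the 13 labels. In PCs, 18 of 19 genes for partner proteins of ATXN1 were tested, with a median log2 fold change of 0.003 against 0.02 for all genes tested. Among them *Hdac4*, a histone deacetylase, was at 62.5, 63.9 and 65.8 CPM in SCA1 and 60.5, 79.6 and 102 CPM in WT mice (log2 −0.48). *Ywhab*, a 14-3-3 protein, was at 47.8, 57.4 and 42.4 against 44.7, 27.7 and 21.5 CPM (0.47), and *Anp32a*, a nuclear phosphoprotein that binds ATXN1, had a log2 fold change of −0.36. The groups overlapped for each of the 3 genes.

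Of 13 regulators of *Atxn1* RNA or of ATXN1 phosphorylation, 12 were tested in PCs, with a median of 0.04. *Rps6ka5*, the kinase MSK1, was at 182, 229 and 289 CPM in SCA1 and 267, 244 and 324 CPM in WT mice (log2 −0.46). All 8 genes for splicing partners of RBM17 were tested, with a median of 0.19. *U2af1*, which recognizes the 3′ splice site, was at 0.36, *Sf1*, which binds the branch point, at −0.32 and *Puf60* at 0.31.

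Of 14 CIC targets, which CIC represses, 6 passed the filter in PCs, where 9821 of the 21377 genes tested without a filter did, with a median of 0.19. *Epha4*, an ephrin receptor, was at 94.1, 86.1 and 89.9 CPM in SCA1 and 64.5, 69.9 and 45.8 CPM in WT mice (log2 0.42, edgeR adjusted p = 0.831), without overlap. *Shc3*, an adaptor of receptor tyrosine kinases, went the other way (−1.13, SE 0.558), with SCA1 mice at 7.91, 9.25 and 4.01 and WT mice at 4.63, 22.9 and 24.2 CPM. *Etv1*, an ETS transcription factor, was at 50.2, 33.3 and 10.9 against 82.4, 7.23 and 53.9 CPM (−0.85). Both overlapped between genotypes.

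The genes whose levels followed each member across the 13 labels are given as a description, since labels share mice, depth and scaling. Of 13286 genes, those most like *Atxn1* in mean log2(CPM + 1) were *Tspyl2* (Pearson r = 0.876 over 13 labels), *Npr2* (0.860) and *Gm39090* (0.859). For *Cic* they were *H3f3b* (0.964), *Ndufv3* (0.956) and *Cops2* (0.948), for *Rbm17* *Pex16* (0.925), *Aprt* (0.922) and *Rbm42* (0.919), and for *Atxn1l* *Rpl15* (0.889), *Pgrmc2* (0.882) and *Arf6* (0.861). Members followed each other less closely than these genes, which were picked as the highest of the 13286. The distance between them is therefore no measure of the members. Pearson r over the 13 labels was 0.436 between *Atxn1* and *Cic*, 0.135 between *Atxn1* and *Rbm17*, −0.005 between *Atxn1* and *Atxn1l*, 0.0769 between *Atxn1l* and *Cic*, 0.410 between *Atxn1l* and *Rbm17* and 0.402 between *Cic* and *Rbm17*.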

How the data were processed

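Nuclei of 6 cerebella were captured with the 10x 3′ kit. Per the paper's methods, the authors aligned reads with Cell Ranger (5.0.1 in the paper, 4.0.0, 5.0.1 and 6.0.1 in the submitters' processing notes) to mm10 with human *ATXN1* added, counted introns, and removed debris with a higher minimum in the first of 2 runs. They deposited raw UMI counts per gene and nucleus, and labels from SingleR.

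UMIs were summed per mouse and label, since nuclei are not replicates, and tested with edgeR 4.0.16 (TMM, filterByExpr minimum count 10 and total 15, genotype and batch as terms, Benjamini-Hochberg over all genes tested). DESeq2 1.42.0 was an alternative. edgeR was tested on simulated data first. CPM used library size only. Shares were thinned by the hypergeometric formula. Coordinates are from GENCODE vM21, matched by symbol. No doublet caller was run. Scripts ran in R 4.3.3 and Python 3.11.15 with scipy 1.17.1, numpy 2.4.6, matplotlib 3.10.9 and pandas 2.3.3.

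Named genes were the members, the 3 genes of each list with the smallest unadjusted p in PCs, any list gene called and the 3 most like each member. Some of these are not reported here. Members and lists were chosen with earlier results of these data known.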

Additional observations from a re-analysis of the deposited data

How the results depend on the processing

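No member was called between genotypes under any of the alternatives, including DESeq2, and the interaction stayed at 0 calls. Calls over all genes in PCs rose from 0 of 9821 to 223 of 21377 without the filter on low counts, 172 of 9821 with the replicate block and 66 with DESeq2. The comparisons of a gene in a label with granule neurons that were called went from 26 of 48 to 17 with RLE factors and to 13 of 24 where the label also had to be the most frequent of its cluster, which left 7 labels. Leaving out 1 mouse gave 22 to 26. The share of PCs with a human UMI, 24.2 percentage points higher in SCA1 mice, was 2.85 points higher after thinning to 3000 UMIs, and that of granule neurons 0.0759 in place of 0.204. Thinning leaves fewer UMIs, evens the depth of nuclei and left out more WT than SCA1 granule neurons. The part of each was not tested. Without 1 mouse the differences before thinning ranged from 17.3 to 28.6 points in PCs and from 0.152 to 0.277 points in granule neurons. The ratio of human *ATXN1* in SCA1 PCs to the limit of 3 counts in WT PCs, 14.8, ranged from 5.56 to 20.8 without 1 mouse. This alternative was chosen after seeing the data.

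Some single log2 fold changes between genotypes, none of them called, changed sign. *Atxn1* in BG turned to 0.0030 with library size only, *Rbm17* in BG to 0.085 in nuclei of at least 3000 UMIs, *Cic* in VA to 0.0057 with library size only, 0.0066 without the filter and 0.025 in nuclei of at least 3000 UMIs, and *Rbm17* in VA to −0.0023 without the batch term and −0.0053 with DESeq2. Leaving out 1 mouse at a time gave ranges that crossed 0 for *Rbm17* in PCs (−0.23 to 0.54), *Atxn1* in BG (−0.24 to 0.16), *Cic* in BG (−0.49 to 0.012), *Rbm17* in BG (−0.24 to 0.13), *Atxn1* in VA (−0.24 to 0.033), *Cic* in VA (−0.30 to 0.32), *Rbm17* in VA (−0.11 to 0.18), *Atxn1* in OL (−0.0081 to 0.32) and *Atxn1* in granule neurons (−0.33 to 0.17). For these changes of direction the cause was not tested. *Atxn1*, *Atxn1l* and *Cic* in PCs kept their direction under the 14 alternatives run for each, and without 1 mouse ranged from 0.088 to 0.585, from −0.78 to −0.49 and from 0.036 to 0.236.

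In a fit with replicate number, not batch, as the block, 0 of 44 comparisons were called, while over all genes 172 were called in PCs, 8 in BG and 6 in granule neurons. Deviations of same-numbered mice 1, 2 and 3 correlated by r = 0.67, 0.07 and 0.50 in PCs, 0.87, 0.26 and 0.79 in granule neurons and 0.76, 0.04 and 0.62 in BG. The numbers were not taken as pairs, since number 2 was under 0.1 in PCs and BG, and WT mouse 2 correlated best with SCA1 mouse 3 in all 3 labels. *Atxn1* in PCs had a log2 fold change of 0.32 under the block (edgeR adjusted p = 0.561). As all SCA1 mice lay above all WT mice, it was higher in the SCA1 mouse under any pairing. Batch was inferred from library numbers. *Atxn1l* rested on 125 UMIs in 292 PC nuclei and failed the filter in 6 labels.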

Other observations

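Labels with fewer than 10 nuclei in some mouse entered no comparison. Among them, nuclei labelled as choroid plexus, the epithelium that secretes cerebrospinal fluid, had the highest *Atxn1* of the labels looked at, 957 ± 140 CPM (SD, n = 6 mice, 83 nuclei), against 635 ± 44.5 CPM in Slc17a6-Nrgn neurons. Microglia had 60.7 ± 2.68 CPM of *Cic* from 125 nuclei, against 41.5 ± 18.5 CPM in Dcn-Nnat nuclei, the highest of the 13 labels compared. The microglia value rested on 38 UMIs, 25 in SCA1 and 13 in WT mice, so its counting error is larger than this SD.

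Among BG, 10 of the 14 CIC targets were tested, with a median log2 fold change of −0.41 against 0.005 for all genes tested in BG, while none was called by edgeR and 2 had an unadjusted p under 0.05, as did 190 of all 11093 genes tested. BG was named after the medians of all 13 labels were seen, as the lowest of them. The median was −0.12 in VA, −0.21 in Dcn-Nnat and −0.08 in granule neurons, and above 0 only in PCs (0.19) and OL (0.03). The summed CPM of the 5 BG markers in BG was 4766, 4468 and 4936 in SCA1 mice 1, 2 and 3 against 5601, 5829 and 5556 for WT mice. That of the VA markers in BG was 556, 446 and 239 against 446, 208 and 216. The BG markers include *Slc1a3*, which the paper reports as lower in BG of these SCA1 mice. The VA markers include *Aqp4* and *Gfap*, which it reports as higher there, so the sums do not measure the mix of cell types alone. The part of these sums in the targets' values was not tested. The 2 targets were *Etv4*, at 122, 130 and 95.9 CPM in SCA1 and 166, 182 and 155 CPM in WT mice (log2 −0.58, SE 0.217), and *Dusp6*, at 5.68, 10.2 and 6.75 against 9.30, 28.4 and 13.03 CPM (−1.06, SE 0.402). Both were named after their values were seen, and *Cic* itself had a log2 fold change of −0.27 in BG (SE 0.305).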
